A study of Mus musculus with 6 samples.

Results

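Ligands of the epidermal growth factor (EGF) receptor and the ERBB receptors that bind them were followed in mouse cardiac fibroblasts after knockdown of Sipa1, which encodes a GTPase-activating protein that turns off Rap. The members were taken by symbol: the ligand genes Hbegf, Areg, Ereg, Tgfa and Nrg1 and the receptor genes Egfr, Erbb2 and Erbb3. All 8 of 8 had a row among the 17525 genes of the table, and all 8 passed the expression filter that left 15954 genes for testing. The fibroblasts came from hearts of C57BL/6 mice aged 6 weeks and were infected before any passage. The scramble group, labelled WT (n = 3), received a lentivirus with a scramble hairpin, and the knockdown group (n = 3) received a lentivirus with a hairpin against Sipa1 whose vector also carries an EGFP reporter. Lipopolysaccharide (LPS, a bacterial cell-wall component) at 1 µg/ml was given to both groups 72 h later and left for 24 h. Polybrene and fetal bovine serum were also listed for every sample, each at the same level in both groups. No untreated or serum-free state was therefore compared, and the part of serum in the levels below was not tested. The part of the EGFP reporter in the differences between the groups was not tested either, nor that of hairpin effects beyond Sipa1. Neither the number of hairpins nor the source animals of each sample could be read from the labels, so every p-value refers to the spread among these samples, possibly a technical one.

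EGF family ligands are made as membrane-anchored precursors, and metalloproteinases of the ADAM family cut them free so that they can reach receptors on the same or neighbouring cells. Heparin-binding EGF (Hbegf), amphiregulin (Areg), epiregulin (Ereg) and TGF-alpha (Tgfa) bind the EGF receptor (Egfr), whereas neuregulin 1 (Nrg1) binds the ERBB3 and ERBB4 receptors. ERBB2 has no known ligand of its own and serves as the partner of the other receptors, and ERBB3 has little kinase activity and signals mainly through PI3-kinase. In the heart, neuregulin acts on cardiomyocytes, and EGF receptor ligands are known as products of cells exposed to inflammatory signals.

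The libraries held 30930998 to 41839742 reads in genes. Sipa1 itself stood at 41.0, 43.7 and 41.4 CPM (read counts relative to the scaled library size) in the 3 scramble libraries and at 17.7, 20.0 and 15.2 CPM in the 3 knockdown libraries, so 41.9% of it remained. This was a log2 fold change of -1.25 (SE 0.075; adjusted p = 2.64e-11 in edgeR). A two-sided exact permutation test gave 0.1, its lower bound with 3 libraries a side. The label fibroblast was set against 10 markers. Col1a1, Col1a2 and Col3a1, the fibrillar collagen genes, were among the highest, at 8267, 6825 and 4254 CPM in the scramble group. Lum was the lowest of the fibroblast markers there, at 62.2 CPM. The epithelial markers Krt8 and Krt18 stood at 0.344 and 1.61 CPM in the scramble group, and the macrophage marker Adgre1 at 13.2 CPM. Other markers were higher: the leukocyte marker Lyz2 stood at 84.4 CPM, the endothelial Cdh5 at 72.3 CPM and the mesothelial Lrrn4 at 54.2 CPM.

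The receptor transcript Egfr and the ligand transcripts Ereg and Tgfa fell in knockdown cells, while the ligand transcripts Hbegf and Nrg1 rose. Areg, Erbb2 and Erbb3 did not pass the threshold of an edgeR adjusted p under 0.05. Of the 8 members 2 rose and 3 fell. Among all tested genes 32.2% passed, 16.4% higher and 15.8% lower, and among the 10864 genes with a mean of at least 5 CPM, where 6 of the members lie, 21.4% rose and 19.5% fell. The median size of the log2 fold change was 0.38 over the members and 0.16 over all tested genes. The CPM ranges of the groups did not overlap for 7 members, 3 higher and 4 lower in knockdown, against 43.6% of all tested genes (22.4% higher and 21.2% lower). The members were chosen with earlier results of these data known, so these contrasts with all genes are a description only. In the authors' deposited table the same 5 members had an adjusted p under 0.05, with 0.0331 for Tgfa as the highest of the 5, and Areg and Erbb2 stood at 0.167 and 0.165.

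**Figure D1:**
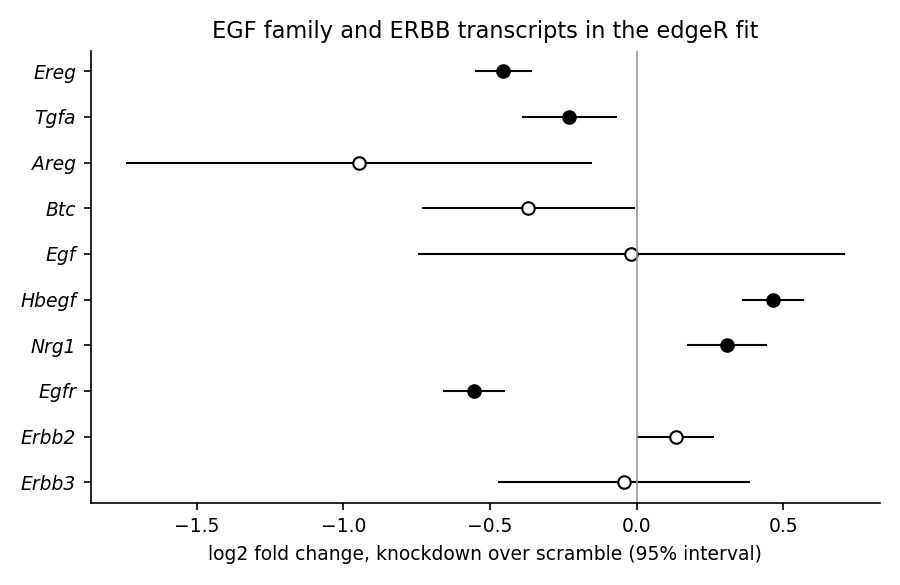
Log2 fold change of each tested EGF family and ERBB transcript, knockdown over scramble, from the edgeR fit, with its 95% interval. Filled points passed an adjusted p of 0.05 and open points did not. Ereg, Tgfa and Egfr lie below 0 and Hbegf and Nrg1 above it, and the interval of Areg runs from -1.74 to -0.16.

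Levels were compared between genes as deposited TPM, which corrects for transcript length. In the scramble group Ereg was the highest member, at 132 ± 5.38 TPM (mean ± SD, n = 3), followed by Hbegf at 62.2 ± 3.97 TPM. Egfr came next at 34.8 ± 1.77 TPM, then Erbb2 at 13.1 ± 0.468 TPM, Tgfa at 7.88 ± 0.220 TPM and Nrg1 at 4.83 ± 0.229 TPM. Areg, at 0.881 ± 0.0748 TPM, and Erbb3, at 0.600 ± 0.0512 TPM, were lowest. No 2 neighbours in this order had overlapping TPM ranges. In the knockdown group Ereg stood at 94.6 ± 4.25 TPM and Hbegf at 84.4 ± 4.82 TPM, so the gap between the leading ligands was smaller than in scramble cells, though their ranges still did not overlap. Areg (0.445 ± 0.0717 TPM) lay below Erbb3 (0.572 ± 0.0365 TPM) in the knockdown group, the reverse of their order in scramble cells.

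**Figure D2:**
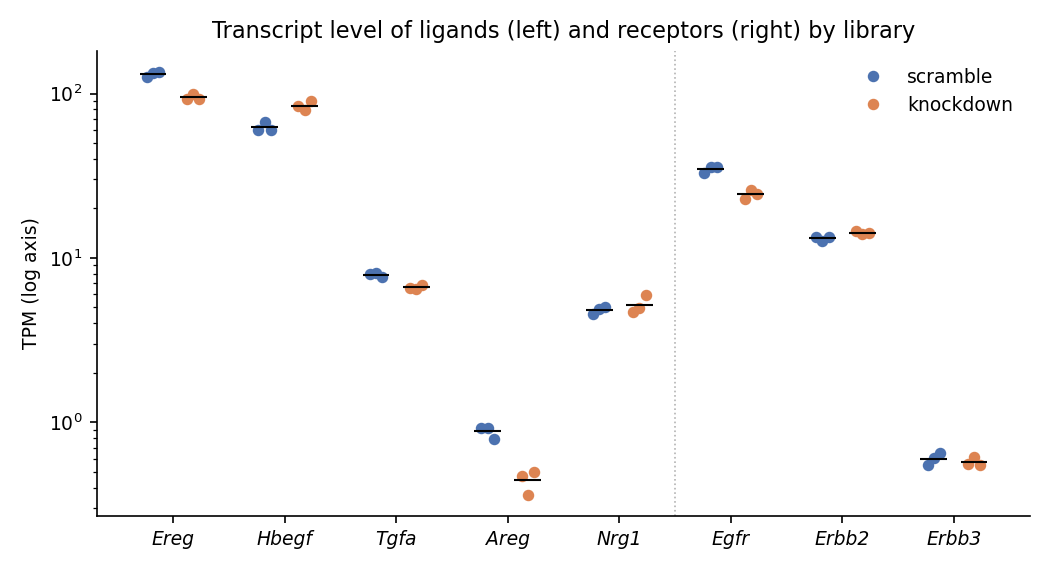
Deposited TPM of the 8 members in each library on a log axis, with scramble libraries in blue and knockdown libraries in orange and a black line at each group mean. The ligands are left of the dotted line and the receptors right of it. Ereg and Hbegf are the highest members in every library, and Areg and Erbb3 stay below 1 TPM.

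Ereg encodes epiregulin, a ligand that binds the EGF receptor and also ERBB4. It had 9080, 7298 and 10123 reads in scramble replicates 1, 2 and 3 and 6328, 7333 and 6185 in knockdown replicates 1, 2 and 3. Scaled to library size, this was 228, 229.6 and 245 CPM in scramble and 168, 179 and 165 CPM in knockdown. Every knockdown library lay below every scramble library, with the highest knockdown value at replicate 2. The level was 27.0% lower, a log2 fold change of -0.45 with a 95% interval of -0.55 to -0.36 (SE 0.045; adjusted p = 4.41e-08 in edgeR). The gene lies at chr5:91074617-91093649 (GRCm38), beside the genes of other EGF receptor ligands. It shares 319 bases with the long noncoding gene Gm19610, which had 142 to 179 reads a library.

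That chromosome 5 cluster holds Epgn, Ereg, Areg and Btc in this order within 375478 bases. Epgn was not analysed here. Areg encodes amphiregulin, a ligand of the EGF receptor alone among the ERBBs, and lies at chr5:91139599-91148432. It was detected with only 20, 15 and 18 reads in scramble and 10, 8 and 10 reads in knockdown, or 0.501, 0.472 and 0.435 against 0.266, 0.195 and 0.266 CPM. The 3 knockdown values were all below the 3 scramble values, yet at this depth the log2 fold change of -0.95 carried an SE of 0.38 and an adjusted p of 0.0621 in edgeR. Areg passed when no filter on low counts was used (adjusted p = 0.0456) or on unfiltered log2(FPKM + 1) values (0.0135), with a range of 0.0135 to 0.164 over its alternatives. Btc, which encodes betacellulin, a ligand of the EGF receptor and ERBB4, had group means of 2.87 ± 0.407 CPM (scramble) and 2.22 ± 0.253 CPM (knockdown), with overlapping ranges (log2 -0.37, SE 0.17; adjusted p = 0.113). Of the 3 measured genes of the cluster 1 fell at an edgeR adjusted p under 0.05, where 15.8% of all tested genes fell.

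Tgfa encodes TGF-alpha, which binds the EGF receptor. Its level was 15.9, 15.1 and 15.2 CPM in scramble replicates 1, 2 and 3 and 13.2, 12.7 and 13.5 CPM in knockdown replicates 1, 2 and 3. The groups did not overlap, but the gap between them was small: the level was 14.7% lower, with a log2 fold change of -0.23 (SE 0.076; adjusted p = 0.0233 in edgeR). Leaving out scramble replicate 1 (adjusted p = 0.0947) or knockdown replicate 2 (0.0586) ended the call, and adjusted p ran from 0.0162 to 0.0947 over its alternatives. The classical ligand gene Egf itself was near the lower limit of measurement, with means of 0.600 ± 0.214 CPM for scramble and 0.591 ± 0.179 CPM for knockdown (log2 -0.02, SE 0.35; adjusted p = 0.977).

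The 3' UTR of Tgfa was shown because it alone, among the 8 members, holds the 7-letter word GCACAAC. An earlier analysis of these data had picked that word for its link to transcripts that fell after the knockdown, so the counts that follow are a description and not independent of it. Of 13228 tested genes with a 3' UTR of at least 50 bases, 645 carried the word, and 33.8% of these fell and 13.2% rose, against 17.1% and 19.0% of the genes without it. The median log2 fold change was -0.09 for carriers and 0.01 for the others. Its part in the lower level of Tgfa was not tested. The 3' UTRs of Ereg and Egfr, which fell further than Tgfa, do not hold the word. A second word, GTCGCCC, also picked from these data, was in none of the 8 members. It went with the other direction: of its 186 carriers 43.0% rose and 9.14% fell, against 18.4% and 18.1% of the other genes. For neither word were carriers and other genes matched for 3' UTR length or expression level. The site of Tgfa starts at base 125 of a 3' UTR of 3764 bases and spans chr6:86272069-86272097 on the plus strand of GRCm38 (GENCODE M21), written here 5′ to 3′ with the word in capitals.
Tgfa site: tccccctcagtGCACAACtgcctgggcag

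Hbegf encodes heparin-binding EGF, whose precursor also serves as a membrane protein on the cell surface, and which binds the EGF receptor and ERBB4. It rose in knockdown cells. In scramble libraries 2503, 2090 and 2562 reads were counted, equal to 62.7, 65.8 and 61.9 CPM. In knockdown libraries the counts were 3305, 3380 and 3451 reads, equal to 88.0, 82.5 and 91.9 CPM. The lowest knockdown library was above the highest scramble library, and the level was 37.9% higher, a log2 fold change of 0.46 with a 95% interval of 0.36 to 0.57 (SE 0.049; adjusted p = 1.39e-07 in edgeR). Hbegf kept its call in all 17 alternatives, with log2 fold changes from 0.43 to 0.49.

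Since Ereg and Hbegf moved in opposite directions, the mix of EGF receptor ligand transcripts shifted more than their sum. Ereg took 63.8%, 63.0% and 65.7% of the summed ligand TPM in scramble replicates 1, 2 and 3 and 49.9%, 52.8% and 48.2% in knockdown replicates 1, 2 and 3. The share of Hbegf was 30.6%, 31.4% and 29.0% in scramble and 45.4%, 42.4% and 46.8% in knockdown. Both shares were separated between the groups, and together these ligands made up most of the ligand transcripts in each library. Tgfa held 3.84% ± 0.177 in scramble and 3.52% ± 0.0881 in knockdown (mean ± SD, n = 3). The summed TPM of Ereg, Hbegf, Tgfa, Btc, Areg and Egf was 197, 213 and 206 in scramble and 185, 188 and 191 in knockdown, and the ratio of Ereg to Hbegf went from 2.12 ± 0.135 to 1.12 ± 0.111. Shares within a library depend on one another, and they describe transcripts, not secreted ligand.

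**Figure D3:**
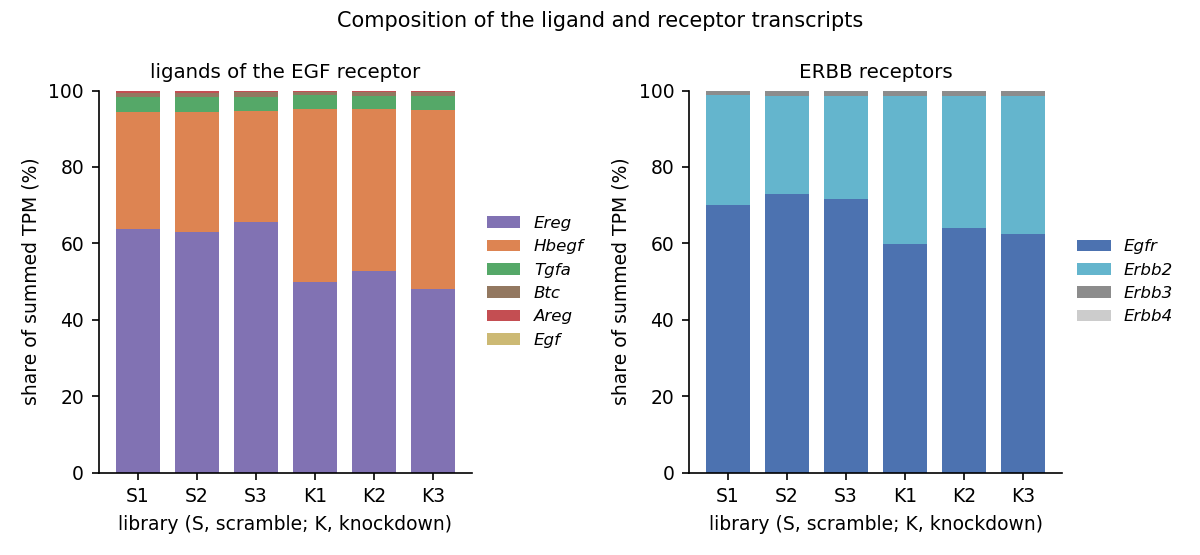
Share of the summed TPM taken by each EGF receptor ligand (left) and each ERBB receptor (right) in the 3 scramble (S1 to S3) and 3 knockdown (K1 to K3) libraries. The Ereg share falls from a mean of 64.1% to 50.3% as the Hbegf share goes from 30.3% to 44.9%, and the Egfr share of the receptors goes from 71.6% to 62.0%.

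Nrg1 encodes neuregulin 1, a ligand of ERBB3 and ERBB4 made in several isoforms from alternative starts. Scramble replicates 1, 2 and 3 stood at 20.1, 19.4 and 20.6 CPM and knockdown replicates 1, 2 and 3 at 24.1, 25.1 and 25.3 CPM. All knockdown libraries were above all scramble libraries in read counts, a level 23.9% higher and a log2 fold change of 0.31 (SE 0.064; adjusted p = 0.000635 in edgeR). On the authors' deposited TPM the groups overlapped, at 4.57, 4.91 and 5.01 TPM in scramble and 4.66, 4.96 and 5.96 TPM in knockdown. In all 3 limma fits on log2 FPKM values Nrg1 missed the threshold (adjusted p = 0.402 to 0.449). The transcript length implied by reads, depth and FPKM was 11440, 10906 and 10748 bases in scramble and 13406, 13100 and 11208 bases in knockdown, so the length correction differed between libraries, more in 2 of the knockdown libraries than in the third. Which isoforms were counted was not tested. The rise of Nrg1 was thus seen in read counts and was not called on length-corrected values.

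Egfr encodes the receptor bound by all the ligands above except neuregulin. It was 81.1, 82.8 and 89.2 CPM in scramble replicates 1, 2 and 3 and 56.2, 59.3 and 57.0 CPM in knockdown replicates 1, 2 and 3. The groups were far apart relative to the spread within them: the level was 31.9% lower, a log2 fold change of -0.55 with a 95% interval of -0.66 to -0.45 (SE 0.049; adjusted p = 8.61e-09 in edgeR). Egfr kept its call in all 17 alternatives, with log2 fold changes from -0.59 to -0.45. The gene lies at chr11:16752203-16913907 (GRCm38) and contains the long noncoding gene Egfros, with 22 to 39 reads in each library (log2 0.03; adjusted p = 0.951), and Gm39584, with 6 to 19 reads. The sources used here do not say whether counting used strand, so reads of overlapping genes may not be separated.

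Erbb2 encodes the ligandless partner receptor. The scramble libraries stood at 29.4, 26.1 and 29.4 CPM and the knockdown libraries at 32.2, 30.6 and 30.5 CPM. The knockdown values were all above the scramble values, by a margin smaller than the distance of scramble replicate 2 from the other scramble libraries. The log2 fold change was 0.13 (SE 0.062, 95% interval 0.01 to 0.26), and the edgeR adjusted p of 0.106 missed the threshold, as in all 17 alternatives (0.0798 to 0.388). Among receptor transcripts, Egfr made up 70.1%, 72.9% and 71.7% of the summed receptor TPM in scramble and 59.9%, 63.9% and 62.4% in knockdown. The ratio of Egfr to Erbb2 in TPM went from 2.65 ± 0.192 to 1.71 ± 0.150 (n = 3 each), without overlap.

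Erbb3 was scarce, with 48 to 71 reads a library. Its levels were 1.45, 1.51 and 1.72 CPM in scramble and 1.49, 1.61 and 1.44 CPM in knockdown, overlapping ranges (log2 -0.04, 95% interval -0.47 to 0.38; adjusted p = 0.899). This interval leaves room for a change of either sign. Erbb4, the receptor shared by neuregulins and several EGF receptor ligands, had 5 to 17 reads a library and was below the expression filter. So were the reads of Nrg2, the gene of another neuregulin, at 2 to 9 a library. Nrg3 and Nrg4 were not analysed here.

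**Figure D4:**
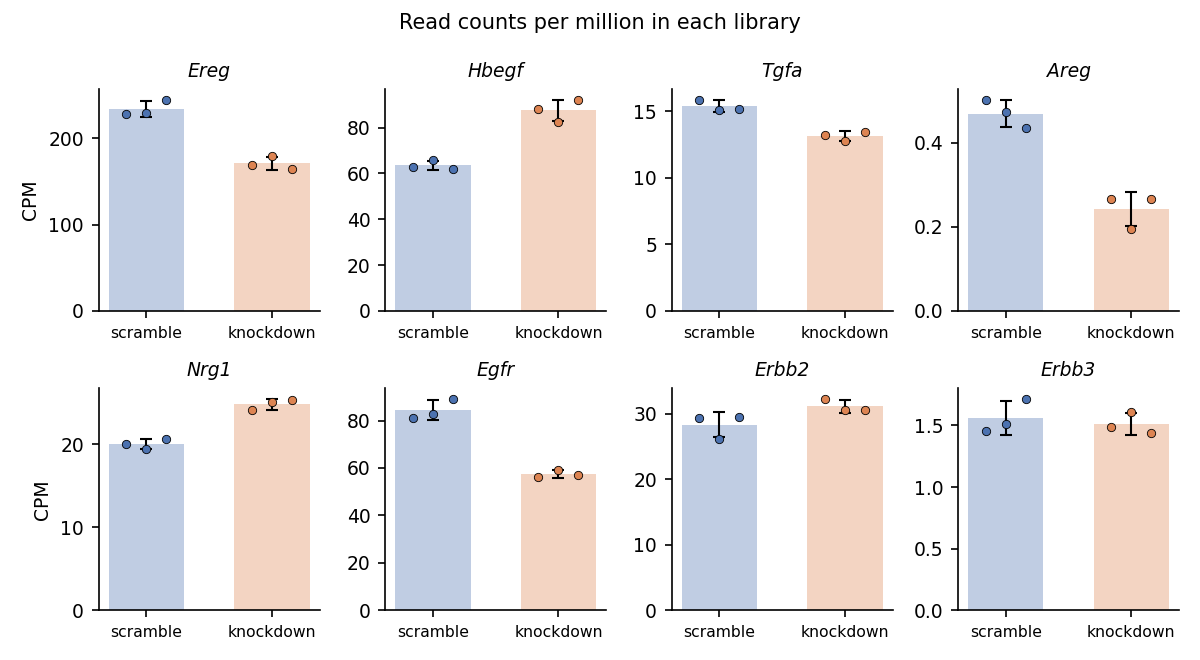
CPM of each member in the 3 scramble (blue) and 3 knockdown (orange) libraries, with bars at the group mean and error bars of 1 SD. The knockdown libraries lie below all scramble libraries for Ereg, Tgfa, Areg and Egfr and above them for Hbegf, Nrg1 and Erbb2, and the groups overlap for Erbb3.

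The promoters of Egfr and Erbb2 were printed because these receptor genes share chromosome 11 and a product family yet differed in the test. RefSeq windows were found for 4 of the 8 members, Areg, Tgfa, Egfr and Erbb2. Each line gives the 250 bases before the annotated start (GRCm38.p6, plus strand, 5′ to 3′), at chr11:16751953-16752202 for Egfr and chr11:98412234-98412483 for Erbb2. Capitals mark matches on either strand to the GC box GGGCGG, the AP-1 site TGANTCA or the cAMP response element TGACGTCA. The Egfr window held 1 GC box, a motif found in 32.7% of all 32851 windows of this length, and none of the others. The Erbb2 window held none of the motifs. The AP-1 letters were in 6.75% and the cAMP response element letters in 1.55% of all windows. The window of Areg held 1 cAMP response element and 1 GC box, which do not overlap each other, and that of Tgfa held 2 GC boxes and neither of the other motifs. The Tgfa window, chr6:86194972-86195221, follows another annotated start than the gene coordinates, which begin at 86195038, so both GC boxes lie inside the gene by those coordinates. A match describes letters only, and binding was not measured.
Egfr: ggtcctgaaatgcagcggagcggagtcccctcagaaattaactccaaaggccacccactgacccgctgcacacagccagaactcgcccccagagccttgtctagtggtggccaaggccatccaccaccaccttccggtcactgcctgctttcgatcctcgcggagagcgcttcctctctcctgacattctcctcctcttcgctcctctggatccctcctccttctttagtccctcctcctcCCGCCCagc
Erbb2: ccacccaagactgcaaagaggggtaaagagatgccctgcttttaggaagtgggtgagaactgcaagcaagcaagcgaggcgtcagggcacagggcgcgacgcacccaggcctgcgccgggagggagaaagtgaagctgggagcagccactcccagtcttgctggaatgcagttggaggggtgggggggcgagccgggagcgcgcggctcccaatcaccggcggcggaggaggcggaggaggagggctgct

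Genes tied to the release of ligands from the cell surface, among them the protease inhibitor gene Timp3, fell or did not pass. Of 15 such genes 7 fell and 0 rose at an edgeR adjusted p under 0.05, where 15.8% of all tested genes fell and 16.4% rose. The counts were the same at an unadjusted p under 0.05 and in DESeq2. Leaving out each library in turn gave 5 to 7 falling genes. Most genes of the list have a mean of at least 5 CPM, and among such genes 21.4% rose and 19.5% fell. The list was chosen with earlier results of these data known. The list's median log2 fold change was -0.09, against -0.0013 for all tested genes. Rhbdf2 encodes iRhom2, a partner in the maturation of ADAM17. Its level went from 71.8, 68.4 and 69.6 CPM in scramble to 55.6, 53.0 and 52.4 CPM in knockdown (log2 -0.38, SE 0.048, adjusted p = 1.52e-06 in edgeR). The related gene Rhbdf1 had means of 79.1 CPM in scramble and 74.5 CPM in knockdown and did not pass (log2 -0.09, adjusted p = 0.185 in edgeR). Adam15, a metalloproteinase gene, went from 173 ± 7.36 to 136 ± 6.55 CPM (log2 -0.35, SE 0.046; adjusted p = 3.43e-06 in edgeR). Frmd8, whose product stabilizes the complex of iRhom and ADAM17, fell by 0.23 on the log2 scale, and Cd9, a tetraspanin that associates with the Hbegf precursor, fell by 0.31. The metalloproteinase genes Adam9 (log2 -0.16), Adam19 (log2 -0.15) and Adam10 (log2 -0.13) fell by less. Adam17, the main sheddase of several of these ligands, had 103, 105 and 109 CPM in scramble and 102, 99.7 and 102 CPM in knockdown and did not pass (log2 -0.06, SE 0.043; adjusted p = 0.293 in edgeR). Timp3, which encodes an inhibitor of ADAM17, did not pass either (log2 -0.05).

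Adaptors and signal carriers downstream of the receptors moved in both directions. Of 24 tested genes 7 fell and 3 rose, beside 15.8% and 16.4% of all tested genes, with a median log2 fold change of -0.08. Crk, an adaptor that links receptors to Rap and Rac exchange factors, went from 201 ± 1.62 to 136 ± 2.82 CPM (log2 -0.57, SE 0.041; adjusted p = 3.26e-10 in edgeR). Among the subunit genes of PI3-kinase, the regulatory Pik3r1 fell (log2 -0.50, SE 0.047), whereas the catalytic Pik3cb (log2 0.54, SE 0.062) and the regulatory Pik3r2 (log2 0.34, SE 0.052) rose. The adaptor genes Grb2 and Shc1, which connect the receptors to Ras, did not pass, at log2 -0.03 and -0.06.

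Of 29 genes for inhibitors, ubiquitination and endocytosis of the receptors 4 rose and 4 fell. Among all tested genes 16.4% rose and 15.8% fell. All 29 have a mean of at least 5 CPM, and among such genes 21.4% rose and 19.5% fell. Socs3, a feedback inhibitor of cytokine receptors, went from 35.1 ± 0.625 to 43.0 ± 1.33 CPM (log2 0.29, SE 0.053), and Epn1, which encodes the endocytic adaptor epsin, from 89.8 ± 5.48 to 108 ± 4.94 CPM (log2 0.27, SE 0.050). Ptpn12 (log2 -0.15) and Sh3kbp1 (log2 -0.23), a phosphatase and a CBL-binding adaptor gene, fell. The count of 4 falling genes was 1 without scramble replicate 1 or knockdown replicate 1, 2 without knockdown replicate 3, and 0 or 1 on FPKM values. Errfi1, the direct inhibitor of the EGF receptor kinase, stood at 124 and 127 CPM in scramble and knockdown (log2 0.03; adjusted p = 0.630), and Lrig1, which promotes loss of the receptor, at 209 and 205 CPM (log2 -0.03).

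Transcripts that textbook accounts place under EGF receptor and ERK control, 25 with Hbegf, Areg and Ereg among them, split into 6 that rose and 9 that fell, where 16.4% of all tested genes rose and 15.8% fell. Dusp5, an ERK phosphatase, went from 10.0 ± 0.288 to 17.7 ± 1.58 CPM (log2 0.82, SE 0.084; adjusted p = 7.38e-08 in edgeR), and the prostaglandin synthase Ptgs2 rose by 0.54. Spred2, an inhibitor of Ras and Raf, went from 80.4 ± 1.71 to 54.9 ± 2.46 CPM (log2 -0.55, SE 0.048; adjusted p = 7.61e-09 in edgeR), a call that was lost on FPKM values (adjusted p = 0.0675 to 0.114). Besides Ereg, the others that fell were Egr1 (log2 -0.23), Fos (log2 -0.26), Junb (log2 -0.12), Myc (log2 -0.17), Ccnd1 (log2 -0.18), Dusp6 (log2 -0.18) and Mmp3 (log2 -0.28). Besides Hbegf, the others that rose were Fosl1 (log2 0.44), Dusp4 (log2 0.31) and Plaur (log2 0.27). The count of 9 falling transcripts was 3 on log2(FPKM + 0.1) values. The median log2 fold change of the list was -0.02.

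**Figure D5:**
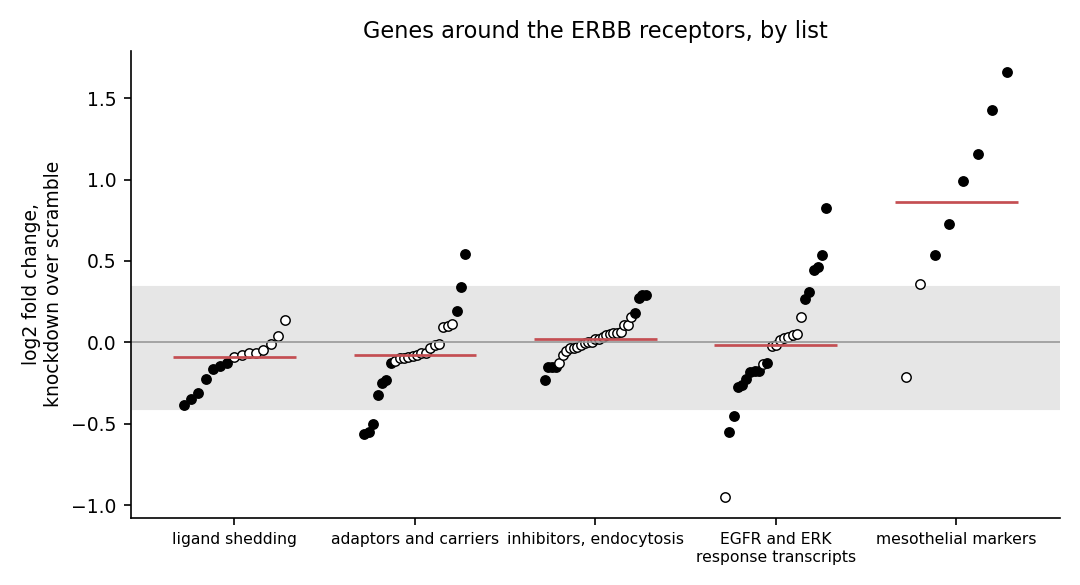
Log2 fold change of every tested gene in each list, ordered within the list, with filled points for an adjusted p under 0.05, red lines at list medians and a grey band from the 10th to the 90th percentile of all tested genes (-0.41 to 0.34). Shedding genes reach down to -0.38 with none called above 0, the next 3 lists reach both ways, and the mesothelial markers have a median of 0.86.

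Some markers of other cell types moved with the groups, and their part in the changes of the EGF family was not tested. The counts below stand beside 16.4% of all tested genes that rose and 15.8% that fell. In such bulk cultures fewer cells of a type and less RNA per cell cannot be told apart. Of 8 mesothelial or epicardial markers 6 rose, and their summed level was 96.0 to 105 CPM in scramble and 217 to 229 CPM in knockdown libraries, with Lrrn4 (log2 1.43, SE 0.046) and Upk3b (log2 0.99, SE 0.074) leading by adjusted p. Krt8 and Krt18, the only epithelial markers tested of 8 (Epcam, Cdh1, Krt5, Krt14, Trp63 and Esrp1 were not analysed here), rose, with a sum of 1.65 to 2.13 CPM in scramble and 4.69 to 5.03 CPM in knockdown. Of 10 fibroblast markers 4 fell, with Tcf21 at log2 -0.84 and Pdgfra at -0.30, while their sum overlapped between groups (23705 to 26720 and 23535 to 25647 CPM). Of 5 tested mural markers 2 fell, Cspg4 (log2 -0.89) and Rgs5 (log2 -0.49), and their sum went from 73.7 to 78.3 CPM in scramble to 49.9 to 54.8 CPM in knockdown. Of 5 tested Schwann or glial markers, listed because such cells are known for Erbb3, Mbp rose (log2 0.86) and S100b fell (log2 -1.27), with sums of 12.4 to 14.7 and 12.7 to 14.0 CPM in scramble and knockdown. Of 8 leukocyte markers Csf1r alone passed and rose (log2 0.80), with sums of 131 to 146 and 152 to 157 CPM. Csf1r went from a mean of 17.0 to 29.7 CPM, while Lyz2, the highest of them, stood at 84.4 and 85.7 CPM. Of 8 endothelial markers 2 rose and 1 fell, with sums of 190.5 to 209.8 and 197 to 207 CPM. Of 3 tested cardiomyocyte markers Tnnt2 rose (log2 0.44), with sums of 20.7 to 22.4 and 25.5 to 32.7 CPM. Tnnt2 made up most of these sums, at means of 20.4 and 27.6 CPM. Tnni3, Ryr2 and Myh6 had scramble means of 0.272, 0.549 and 0.186 CPM, and Actc1, Pln, Nppa and Myl2 were not analysed here.

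Likeness over the 6 libraries was ranked among 10418 genes with a mean of at least 5 CPM, leaving out predicted-gene names (Gm number, Rik or LOC). The genes most like Hbegf were Tnfaip1, Fbxl19 and Peli2, with Pearson r of 0.997, 0.997 and 0.996 on log2 CPM. For Egfr they were Ak4, Fam43a and Snx30, each with r of 0.999. These values describe 6 points in 2 groups that differ in level, and they were selected as the highest of many, so they mostly follow the step between the groups.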

How the data were processed

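The authors deposited a single table for all 6 samples, with whole-number read counts per gene, FPKM and TPM, per the file headers. Per the submitters' processing notes, HISAT2 and StringTie were used with the mm10 build. Per the labels' protocols, libraries were poly(A)-selected and stranded, read in pairs of 100 bases. The authors' normalized log2 values, signed fold score, mean normalized signal, test statistic and p-values were deposited too and entered no test. Depth was 30930998 to 41839742 reads. Samples were grouped by title. The two-sided quasi-likelihood test of edgeR 4.0.16 (R 4.3.3) was run on the counts, with its default filter on expression, TMM scaling and a robust fit. Benjamini-Hochberg adjustment covered all 15954 tested genes. SE is the log2 fold change over the root of F. Levels are CPM on TMM-scaled libraries or deposited TPM. The procedure was tested on simulated data. Members and lists were chosen with earlier results of these data known. Named genes are the members, Sipa1, other EGF family genes, and up to 2 rising and 2 falling genes of each list by smallest adjusted p. Adam17, Frmd8, Cd9, Adam9, Adam10, Adam19, Rhbdf1, Timp3, Grb2, Shc1, Errfi1, Lrig1, Egfros and some markers were named after their values were seen. So were the further EGF receptor and ERK response transcripts that passed. The printed promoters were also chosen after values were seen. 3' UTRs are the longest of each gene's GENCODE M21 (GRCm38) coding transcripts. Alternatives were other scaling, filters, DESeq2 1.42.0, limma-voom (limma 3.58.1), a non-robust fit, the replicate block, each library left out, and limma on log2 FPKM.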

Additional observations from a re-analysis of the deposited data

How the results depend on the processing

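The number of members that rose was 2 in all alternatives on read counts and 1 in the 3 fits on FPKM values, where Nrg1 was lost. The number that fell was 3, except 2 without scramble replicate 1 or knockdown replicate 2 (Tgfa lost) and 4 without a filter on counts or FPKM (Areg gained), so leaving out each library gave 2 to 3 falling and 2 rising members. Sipa1, Hbegf, Ereg and Egfr kept direction and call in all 17 alternatives. Over all genes, leaving out each library gave 2128 to 2433 rising and 2024 to 2384 falling genes. With the replicate block 2710 genes rose and 2597 fell, and the counts of members stayed at 2 and 3. Same-numbered libraries did not deviate together (correlations 0.0041, -0.0091 and -0.010), so the numbers were not taken as pairs. Low counts limit Areg, Egf, Erbb3, Erbb4 and Nrg2.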
